A study of Mus musculus with 14 samples.

Results

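The most distant contacts of a captured stretch of mouse chromosome 16 were described, those between 10 kb bins whose starts lay over 2.75 Mb apart. The interval ran over chr16:45520001-50870000 (mm10) in 535 bins, and 33670 of its 143380 bin pairs were members by this distance rule, which used no contact value. Members lay 2760 to 5340 kb apart. They joined 259 left bins with 259 right bins, and the 17 bins from 48110001 to 48280000 had no partner far enough away.

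The data were 2 contact matrices, named by their deposited names as mouse embryonic stem cells (mESC) after 2 days of auxin and as untreated mESC, each with its replicates combined. Auxin is a plant hormone that triggers degradation of a tagged protein in engineered cells; the labels name neither an auxin sample, nor a tagged protein, nor a promoter that drives the plant receptor. The labelled samples of the series, 14 in 10 groups, are Cas/129 hybrid mESC grown in 2i plus LIF, lines derived from them and neural precursors, and no source used here says whether the matrices share that strain. Since each condition has 1 pooled matrix, no condition could be tested against the other, and all intervals below cover counting error alone, not the spread between cultures.

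In Hi-C, neighbouring DNA ends are ligated inside the nucleus, and the read pairs that join 2 bins count their contacts. Contact frequency falls with distance along the chromosome. Over megabases, chromatin of like activity tends to meet, gene-rich with gene-rich and gene-poor with gene-poor, whereas cohesin loops and the domains they form act mostly at shorter range. The interval holds a gene-bearing left end from Slc9c1 to Nectin3, a long gene desert, and a right part with Dppa2 and Dppa4, both genes of pluripotent cells whose products bind DNA, and the genes from Morc1 to Bbx.

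The sequences before 4 gene starts are shown for 2 long-range gene pairs that the results below describe by their gene bodies. Phldb2 and Trat1 had the most read pairs between them among the gene pairs of the block pair with most untreated contact. Plcxd2 and Ift57 formed the gene pair with the largest ratio of read pairs, auxin over untreated, among those whose counting interval excluded 1. For each gene, the 250 bases before the start listed by RefSeq on GRCm38.p6 are given, 5′ to 3′ on the gene's strand. The 50 bases next to that start are in capitals. The stretches lie at chr16:45844379-45844628 on the minus strand for Phldb2 and chr16:48772063-48772312 on the minus strand for Trat1. Those of Plcxd2 and Ift57 lie at chr16:46010414-46010663 on the minus strand and chr16:49699044-49699293 on the plus strand. The listed starts of Phldb2 and Trat1, 45844378 and 48772062, lie inside the gene bodies used for read pairs. Those bodies run from 45746230 to 45953598 and from 48730774 to 48810547.
Phldb2: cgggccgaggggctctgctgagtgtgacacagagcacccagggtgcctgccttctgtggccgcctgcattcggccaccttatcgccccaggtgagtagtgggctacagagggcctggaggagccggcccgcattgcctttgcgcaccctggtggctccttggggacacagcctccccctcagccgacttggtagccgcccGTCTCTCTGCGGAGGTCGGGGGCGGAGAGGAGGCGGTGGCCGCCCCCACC
Trat1: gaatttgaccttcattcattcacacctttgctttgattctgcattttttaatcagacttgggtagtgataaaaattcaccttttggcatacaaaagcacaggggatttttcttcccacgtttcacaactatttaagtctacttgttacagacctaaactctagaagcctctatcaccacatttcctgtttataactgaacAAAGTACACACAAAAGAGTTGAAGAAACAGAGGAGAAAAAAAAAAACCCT
Plcxd2: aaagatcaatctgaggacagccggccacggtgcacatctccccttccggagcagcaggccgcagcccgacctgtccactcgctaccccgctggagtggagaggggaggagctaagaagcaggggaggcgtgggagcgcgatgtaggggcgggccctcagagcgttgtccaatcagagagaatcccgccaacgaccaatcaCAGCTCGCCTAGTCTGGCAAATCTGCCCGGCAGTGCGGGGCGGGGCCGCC
Ift57: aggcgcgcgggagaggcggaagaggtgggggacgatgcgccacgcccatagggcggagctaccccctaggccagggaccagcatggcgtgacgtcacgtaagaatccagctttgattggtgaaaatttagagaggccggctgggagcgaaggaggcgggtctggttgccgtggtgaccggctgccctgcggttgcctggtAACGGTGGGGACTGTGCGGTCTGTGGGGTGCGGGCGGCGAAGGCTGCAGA
These stretches were 70.0%, 35.2%, 65.6% and 66.0% G and C in the order given, with 16, 1, 19 and 22 CG dinucleotides. Among the 32851 promoters of the table, 90.8% had a lower GC content than Phldb2 and 5.0% a lower one than Trat1. The table held a promoter for 22 of the 28 protein-coding genes of the interval. The contacts of these 4 genes are given with the gene pairs below.

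Long-range contact was higher in the auxin matrix than in the untreated one. After each balanced matrix was scaled to a sum of 1000000 contact units, members held 27704 units in auxin and 23089 units in untreated cells, a ratio of 1.2. Whole read pairs could be recovered from the balanced values, and 12218 of 433895 pairs in auxin and 10687 of 439849 in untreated cells were members, or 2.82% (2.77 to 2.87, exact 95% binomial interval) and 2.43% (2.38 to 2.48). Scaled to equal totals, the ratio of pairs was 1.16 (1.13 to 1.19). The 109710 nearer bin pairs had a ratio of read pairs of 0.996. They carry nearly all pairs of each matrix, so scaling to equal totals holds this ratio near 1.

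Most members were empty. No read pair linked 73.1% of them in auxin and 76.8% in untreated cells, against 33.2% and 36.8% of nearer bin pairs. Of the members, 58.4% were empty in both matrices, 18.4% were filled in auxin alone, 14.7% in untreated alone and 8.54% in both. A filled bin pair mostly rested on 1 read pair, as did 6722 in auxin and 5690 in untreated cells; 1744 and 1569 had 2 read pairs, and 592 and 553 had 3 or more. No member had more than 9 read pairs in auxin or 8 in untreated cells, so single bin pairs say little and sums over blocks were used.

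The difference spread over nearly the whole range of distances. In bands of 250 kb the ratio of read pairs lay between 1.09 and 1.25 from 2750 to 5000 kb, and it was 0.986 (0.779 to 1.25) from 5000 to 5250 kb, on 144 and 148 pairs. On the near side of the limit, the band from 2500 to 2750 kb had 3830 and 3426 pairs and a ratio of 1.13 (1.08 to 1.19); on the far side, that from 2750 to 3000 kb had 2890 and 2516 pairs and a ratio of 1.16 (1.10 to 1.23). The intervals on the 2 sides of the limit overlapped. Further inside the limit the ratio was 1.12 (1.08 to 1.16) from 2000 to 2250 kb. From 2250 to 2500 kb it was 1.12 (1.08 to 1.17), so higher contact in auxin was not particular to members. Balanced contact gave a more uneven course, 1.30 in the first band and 1.12 in the second.

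**Figure D1:**
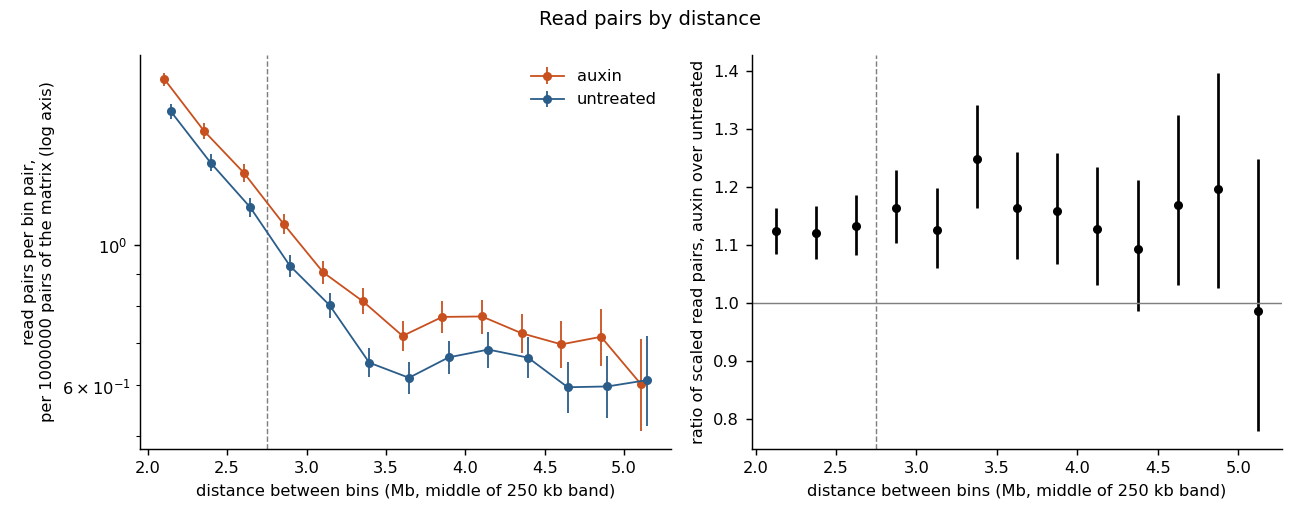
Left, read pairs per bin pair per 1000000 pairs of the matrix (log axis) against distance in Mb, auxin and untreated, with exact 95% Poisson intervals; right, their ratio with its 95% counting interval. The dashed line marks 2.75 Mb. Auxin lies above untreated in every band shown up to 5 Mb, and in the last band the ratio is 0.986.

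The members fell into 66 pairs of 250 kb blocks, numbered 1 to 22 from the left, and 65 of these had at least 30 read pairs in both matrices together. Contact was higher in auxin in 58 of the 65 and lower in 7. Higher contact was also seen in 66.2% of all block pairs of the map, in 58.6% of those up to 2.75 Mb apart and in 74% of the 50 pairs 8 to 11 blocks apart that lay within the limit. At least 1.5-fold higher contact was seen in 13 of the 65, or 20%, against 15.6% of all block pairs of the map and 26% of those 8 to 11 blocks apart within the limit. By read pairs alone, 6 of the 65 were at least 1.5-fold higher. None of the 65 was lower by 1.5-fold in balanced contact, against 0.38% of the whole map. The share at least 1.5-fold higher was thus below that just inside the limit, and the share higher by any amount was above it. With the grid moved by 120 kb, 52 of 66 block pairs were higher, and the share just inside the limit was not computed on that grid.

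Ratios of contact ran from 0.716 to 2.71 with a median of 1.16, a lower quartile of 1.07 and an upper quartile of 1.41. Block pairs rested on a median of 343.5 read pairs in both matrices together. The 95% counting interval of the ratio of read pairs lay above 1 in 22 of the 65 and below 1 in none; over the whole map, whose nearer block pairs have far more reads, it lay above 1 in 40.3% and below 1 in 21.3%. Above 1 it lay in 42.4% of the block pairs up to 2.75 Mb apart and in 56% of those 8 to 11 blocks apart within the limit. Set against the ratio over all members, the interval held it in 50, lay above it in 9 and below it in 6. The 9 above it were 2x21, 3x20, 5x19, 5x20, 6x20, 7x19, 9x21, 10x21 and 10x22, and the 6 below it were 1x13, 1x14, 1x15, 2x14, 3x14 and 4x20, each written as left block by right block. All of the higher ones ended in right blocks 19 to 22, and all but 2 of them began in left blocks 5 to 10.

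**Figure D2:**
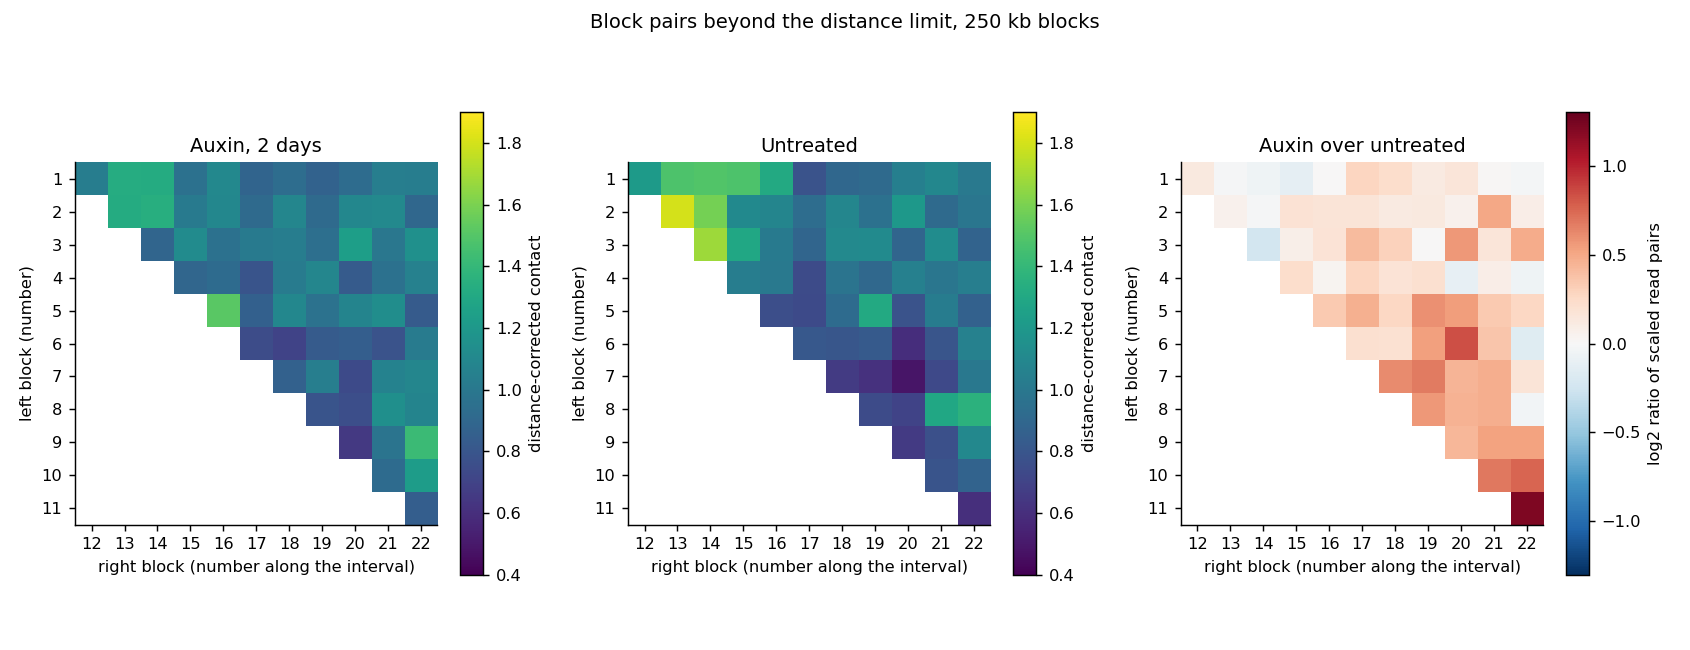
Block pairs beyond the distance limit by left block (rows) and right block (columns). Colour gives distance-corrected balanced contact in auxin (left) and untreated (middle), and the log2 ratio of scaled read pairs, auxin over untreated (right). The untreated map is brightest at left blocks 1 to 3 with right blocks 13 to 15, and most of the red in the ratio lies in left blocks 5 to 10; the pair 11x22 holds 16 and 7 read pairs.

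The 4 block pairs with most contact in both matrices joined the gene-bearing left end to the stretch from Morc1 to Myh15. Block 1 (chr16:45520001-45770000) holds Slc9c1, a sperm sodium-proton exchanger, Gcsam, BC016579, Tmprss7, Tagln3, Abhd10 and the end of Phldb2. Block 2 (chr16:45770001-46020000) holds most of Phldb2, which anchors microtubules at the cell cortex, and Plcxd2, a phospholipase C domain protein. Block 3 (chr16:46020001-46270000) holds Cd96, a receptor of T and NK cells, and Gm4737. On the right, block 13 (chr16:48520001-48770000) holds part of Morc1, a gene for transposon silencing in male germ cells, and of Trat1, an adaptor of the T cell receptor. Block 14 (chr16:48770001-49020000) holds the rest of Trat1, the resistin-like genes Retnlb, Retnla and Retnlg, Dzip3, a ubiquitin ligase, and Cip2a, an inhibitor of the phosphatase PP2A. Block 15 (chr16:49020001-49270000) holds Myh15, a myosin heavy chain.

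Block pair 2x14 came first in both matrices, with 824 units in auxin and 817 in untreated cells on 449 and 459 read pairs. It was followed by 1x13 with 818 and 761 units, 1x14 with 708 and 692, and 3x15 with 692 and 667. These 4 were among the 5 highest of both matrices. Their ratios were close to 1, at 1.01, 1.07, 1.02 and 1.04. The fifth place went to 7x19 in auxin, with 639 and 315 units, and to 8x21 in untreated cells, with 615 and 601. Both places rested on sparse bins, those of under 100 read pairs in either matrix: 197 of the 601 untreated units of 8x21 came from 1 bin pair of 3 read pairs. By reads 8x21 was higher in auxin, with 201 and 147 read pairs, a ratio of 1.39 (1.11 to 1.73). Without sparse bins 8x21 held 524 and 381 units and 7x19 held 520 and 315, and the fifth place went to 9x21 in auxin, with 602 and 396, and to 1x15 in untreated cells, with 474 and 589. The 5 highest block pairs held 13.3% of long-range contact in auxin and 15.3% in untreated cells, so contact was spread widely over the blocks in both.

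Distance favours some of these pairs, so contact was also divided by the mean at each distance in the same matrix. On this distance-corrected scale 2x13 was highest in untreated cells, with 1.32 in auxin and 1.81 in untreated cells. Block pair 3x14 followed in untreated cells, with 0.888 and 1.68. The mean used as divisor was mostly higher in auxin, so the scale ranks block pairs within a matrix. Before this division 2x13 held 456 units in auxin and 461 in untreated cells, on 271 and 264 read pairs. The lowest on the distance-corrected scale was 7x20 in untreated cells, with 0.736 and 0.486. Block 7 lies in the gene desert and block 20 in Bbx, which encodes an HMG-box protein. Over the 66 block pairs the values ran from 0.647 to 1.52 in auxin and from 0.486 to 1.81 in untreated cells. Their SD was 0.175 and 0.269, so the SD over blocks was smaller in the auxin matrix. The auxin maximum was 5x16, where 1 read pair of a sparse bin made up 278 of 524 units, and 9x22 followed at 1.42. The 66 also include 11x22, on 16 and 7 read pairs. The 2 matrices' distance-corrected values had Pearson's r = 0.50 and Spearman's rho = 0.51 over these block pairs, which share bins and a capture design.

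Gene cover went with long-range contact on the left side in untreated cells. Over the 11 left blocks, the percent of a block covered by protein-coding genes and its distance-corrected contact had r = 0.53 in auxin and 0.80 in untreated cells, with rho = 0.36 and 0.63. Over the 11 right blocks r was 0.20 and 0.47, with rho = -0.07 and 0.19. These are descriptions over neighbouring blocks of 1 interval. The left blocks include block 11, on 16 read pairs in auxin and 7 in untreated cells. In block 5, 278 of 3269 auxin units came from 1 read pair of a sparse bin. In block 8, 197 of 1364 untreated units came from 3 read pairs with a sparse bin. Coefficients without block 11 or sparse bins were not computed, so the contrast between the matrices was not tested.

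The difference between the matrices followed the left anchor. Read pairs from left blocks 1 to 4 had ratios of 1.03, 1.10, 1.13 and 1.08, and block 4 (chr16:46270001-46520000) holds Nectin3, an adhesion molecule. Blocks 5 to 10, which hold no protein-coding gene, had ratios of 1.34, 1.30, 1.41, 1.31, 1.42 and 1.64. Intervals lay above 1 in blocks 2, 3 and 4 as well as in each desert block, and that of block 1 held 1. They ran from 1.05 to 1.22 in block 3, from 1.23 to 1.45 in block 5 and from 1.34 to 2.02 in block 10. Block 10 had 258 read pairs in auxin and 159 in untreated cells, and block 5 had 1332 and 1009.

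On the right side the ratios were 1.09, 1.01 and 0.953 in blocks 12 to 14 and 1.06 and 1.08 in blocks 15 and 16, with intervals that held 1 in all 5. They were 1.24, 1.17, 1.25, 1.25, 1.27 and 1.17 in blocks 17 to 22, with intervals above 1. Block 17 holds Ift57, a component of the transport complex of cilia, block 18 Cd47, which keeps macrophages from engulfing a cell, blocks 19 and 20 Bbx and block 21 Ccdc54. The 2 sides are linked, since blocks 12 to 14 were far enough only from left blocks 1 to 3.

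**Figure D3:**
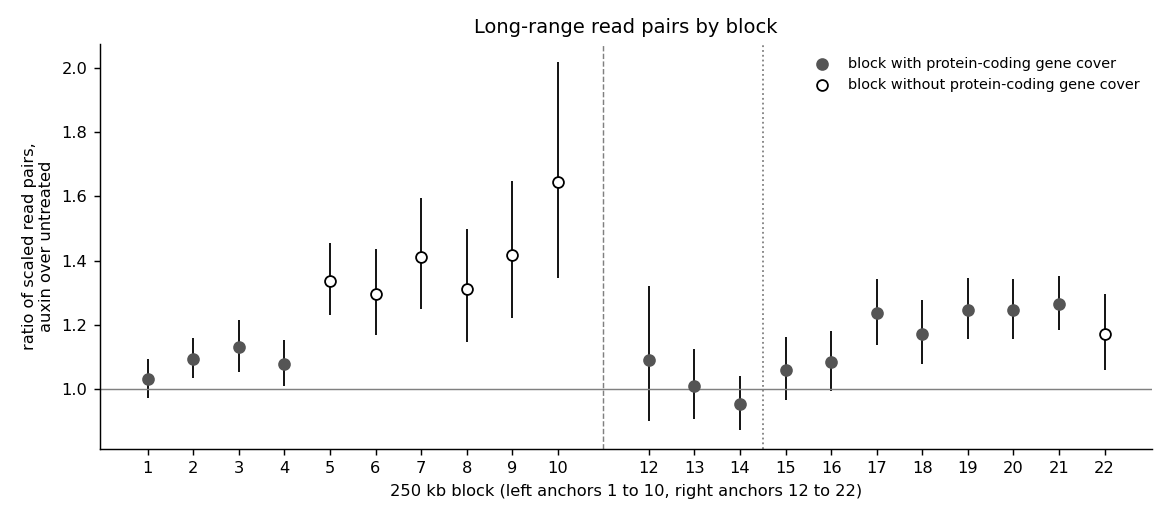
Ratio of scaled long-range read pairs, auxin over untreated, for each 250 kb block as an anchor, with its 95% counting interval; open points mark blocks that no protein-coding gene covers. Block 11, with 16 and 7 read pairs, is left out. The dashed line separates left from right anchors and the dotted line marks the boundary between Cip2a and Myh15. Open points at blocks 5 to 10 lie between 1.30 and 1.64.

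Members were therefore split by both anchors, a grouping chosen after the block values had been seen. The right side was cut at the bin starting at 49020001, which had the lowest untreated insulation between Cip2a and Myh15, and the left side at the last bin of Nectin3, which ends at 46500000. Pairs from the gene-bearing left end to the right bins before the boundary held 3470 units in both matrices, a ratio of 1.00. They had 1876 read pairs in auxin and 1924 in untreated cells, a ratio of 0.988 (0.927 to 1.05). This class had the densest long-range contact, with distance-corrected values of 1.24 in auxin and 1.54 in untreated cells.

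Pairs from the gene-bearing left end to bins beyond the boundary had 6138 and 5617 read pairs, a ratio of 1.11 (1.07 to 1.15). Pairs from the gene desert, which holds only Gm52257 among the protein-coding genes, to bins beyond the boundary had 4204 and 3146, a ratio of 1.35 (1.29 to 1.42). The desert class held 66.8% of the net gain in balanced contact, on 13041 of the 33670 members, the gene-bearing left end with bins beyond the boundary held 33.2%, and the pairs before the boundary 0.012%. The left cut was placed where the block ratios differed, and the right cut was planned with earlier results of these data known. These values thus describe the difference between the classes and do not test it.

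The classes kept this order in the first band of distance. From 2750 to 3000 kb, the desert class had 1286 read pairs in auxin and 896 in untreated cells, a ratio of 1.45 (1.33 to 1.59). The gene-bearing left end had 451 and 420 with bins beyond the boundary, a ratio of 1.09 (0.951 to 1.25), and 1153 and 1200 with bins before it, 0.974 (0.898 to 1.06). The intervals of the gene-bearing classes held 1 in this band and overlapped each other.

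**Figure D4:**
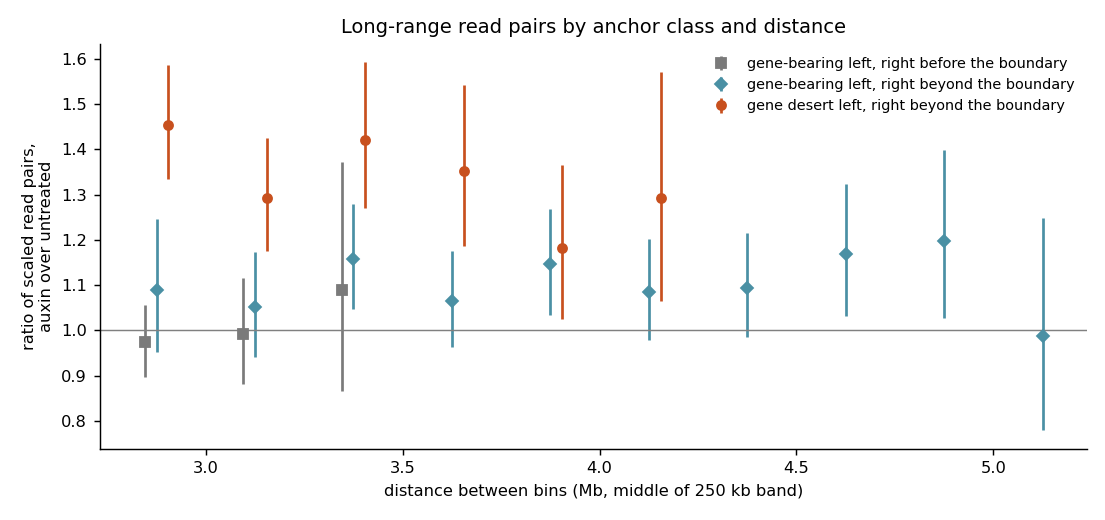
Ratio of scaled read pairs, auxin over untreated, against distance in Mb for 3 classes of members, with 95% counting intervals. Gene desert points lie between 1.18 and 1.45, above the gene-bearing points in every band where both are drawn. From 3750 to 4000 kb the values are 1.18 and 1.15 and the intervals overlap widely. Desert pairs over 4250 kb apart, which reach 4360 kb, are not drawn.

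Emptiness followed the same order. In the desert class 75.1% of bin pairs were empty in auxin and 81.3% in untreated cells, whereas beyond the boundary the gene-bearing left end had 74.1% and 76.5%, and before it 56.8% and 57.7%. By block pair, 47.3% to 83.2% were empty in auxin, with a median of 74.8%, and 45.3% to 87.5% in untreated cells, with a median of 78.5%. The fullest block pair in both was 2x13, Phldb2 and Plcxd2 with Morc1 and Trat1, and the emptiest in both was 7x20. Fewer bin pairs were empty in auxin in 59 of the 66 block pairs and more in 6, and the shares were equal in 3x19. The widest gap was in 10x22, with 64.8% empty in auxin and 77.6% in untreated cells. Lower emptiness in auxin was not limited to members, and the matching count of block pairs within the limit is not given here. Of nearer bin pairs, 33.2% were empty in auxin and 36.8% in untreated cells, and of all bin pairs of the map 42.6% and 46.2%.

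**Figure D5:**
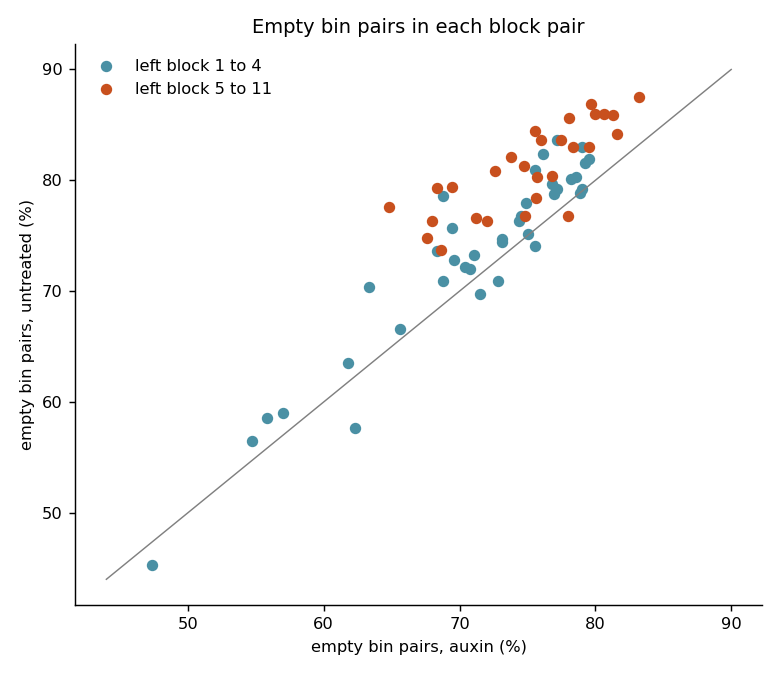
Percent of bin pairs without a read pair in each of the 66 block pairs, auxin on the x axis and untreated on the y axis, coloured by left block; the line marks equal values. Points above the line are less empty in auxin, and the emptiest block pair reaches 83.2% in auxin and 87.5% in untreated cells.

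The block pairs with the largest ratios of contact all began in the gene desert. The first, 5x16, held 524 units in auxin and 194 in untreated cells, a ratio of 2.71. A single read pair between the bins starting at 46640001 and 49460001 made up 278 of the 524, and the left bin had 19 read pairs in all; balancing multiplies the reads of such a bin by a large factor. Its read pairs numbered 125 and 100, a ratio of 1.27 (0.966 to 1.67), and without bins of under 100 read pairs its contact ratio was also 1.27. The next, 7x19, had 183 and 116 read pairs, a ratio of 1.60 (1.26 to 2.04), and its contact ratio was 2.03, or 1.65 without sparse bins.

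Block pair 7x21 followed with a contact ratio of 1.82 and 181 and 132 read pairs, 10x22 with 1.77 and 125 and 75, and 7x18 with 1.77 and 71 and 47. The ratios of read pairs were 1.39 (1.10 to 1.75), 1.69 (1.26 to 2.28) and 1.53 (1.04 to 2.26). Block 7 (chr16:47020001-47270000) thus began 3 of these 5, and its partners lay at Cd47, at Bbx and around Ccdc54.

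The smallest ratios mostly involved the gene-bearing left end. Block pair 3x14, Cd96 with the Trat1 to Cip2a stretch, held 307 units in auxin and 428 in untreated cells, a ratio of 0.716, on 174 and 208 read pairs, a ratio of 0.848 (0.689 to 1.04). Block pair 1x15, the Slc9c1 end with Myh15, had 230 and 253 read pairs, and its contact ratio was 0.805. Block pairs 4x20, 5x19 and 3x19 followed at 0.891, 0.912 and 0.956. By reads, 3x19 was at 1.00, on 167 and 169 read pairs, and 5x19 was higher in auxin: it had 219 and 147 read pairs, a ratio of 1.51 (1.22 to 1.87), and 142 of its 522 untreated units rested on 1 read pair of a sparse bin. Without sparse bins its contact ratio was 1.62.

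Members with a bin of under 100 read pairs made up 6.10% of the members and held 4.60% of long-range contact in auxin and 3.12% in untreated cells, on 27 and 16 read pairs. All of the 5 highest single values of each matrix rested on 1 to 3 read pairs, from 278 to 65.8 units in auxin and from 197 to 46.8 in untreated cells, and each was 0 in the other matrix. The bin pair with most reads in auxin joined the bins starting at 45830001 and 49800001 with 9 read pairs in auxin and 0 in untreated cells. In untreated cells it joined 45680001 and 48610001, with 0 read pairs in auxin and 8 in untreated cells.

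Single anchor bins varied about this pattern. Among bins with at least 100 read pairs and 25 partners, contact was higher in auxin in 71.4% of the 227 left and 70.2% of the 228 right bins used. For contact with bins within the limit it was higher in 47.6% of 517 bins. That is not a like comparison, since contact within the limit makes up nearly all of each equally scaled matrix. The share for pairs just inside the limit, where read pairs were also higher in auxin, is not given here. Among all bins with at least 100 read pairs, that starting at 49460001 had the most contact per partner bin in auxin, 3.10 units against 0.526 in untreated cells, on 38 and 30 read pairs. It is the right end of the 1 read pair in block pair 5x16, and without sparse partner bins it had 0.798 and 0.544 units per partner. The bin starting at 48800001, in Trat1, had 2.87 and 1.11 units per partner on 34 and 30 read pairs, or 1.44 and 1.16 without sparse partner bins. The next 3, starting at 48060001, 47940001 and 48070001, had 17 partners or fewer. In untreated cells the bin starting at 47370001 came first, with 1.28 in auxin and 3.55 in untreated cells on 25 and 24 read pairs. It is the left end of the 3 read pairs in 8x21, and without sparse partner bins the order turned, with 1.31 in auxin and 0.918 in untreated cells. The bins starting at 48560001 and 48570001 in Morc1, 48750001 in Trat1 and 48850001 came next, with ratios from 0.492 to 0.753.

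Of the 25 listed genes, 22 were placed and all of these had members; Cd200, Zbed2 and Guca1c were not placed. Contact was higher in auxin for 16 of the 21 with contact in both matrices, against 77.8% of all 27 protein-coding genes of the interval with such contact. The ratio ran from 0.794 for Retnlb to 1.83 for Dppa4 with a median of 1.09. Dppa4 had 2 and 1 read pairs and Dppa2 had 3 and 0, since only 3 and 4 bin pairs of theirs were far enough apart. Long-range contact of these 2 genes was thus not measurable at this depth.

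The counting interval of the ratio of read pairs lay above 1 for 4 of the listed genes and below 1 for none, against 18.5% of all protein-coding genes above 1. Gcsam, a signalling protein of germinal centre B cells, had 180 and 140 read pairs, a ratio of 1.30 (1.04 to 1.64). Plcxd2 had 664 and 583, a ratio of 1.15 (1.03 to 1.29). Ift57 had 363 and 303, a ratio of 1.21 (1.04 to 1.42), and Bbx had 1473 and 1236, a ratio of 1.21 (1.12 to 1.30). BC016579, which was not listed, had 465 and 356, a ratio of 1.32 (1.15 to 1.52). Gcsam and BC016579 both lie in block 1, whose own ratio was 1.03, so ratios varied within the gene-bearing left end. The ratios of Morc1, Trat1 and Dzip3, whose partners are the gene-bearing left end, were 1.01, 0.921 and 0.901 with intervals that held 1.

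Gene bodies had members between them in 146 gene pairs. Of these, 133 had a read pair in at least 1 matrix, and 52 had at least 30 read pairs in both matrices together. Phldb2 and Trat1 had 159 read pairs in auxin and 170 in untreated cells over 198 bin pairs, a ratio of 0.948 (0.759 to 1.18). Their distance-corrected contact was 1.37 in auxin and 1.84 in untreated cells. Their listed gene starts, both inside the gene bodies, lie 2928 kb apart. The 3 by 3 bins around these 2 listed starts held 6 read pairs in either matrix, so nothing can be said of the starts themselves.

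The counting interval excluded 1 in 3 of the 52 gene pairs, above 1 in 3.85% and below 1 in 1.92%. Plcxd2 and Ift57, whose starts lie 3689 kb apart, had 27 read pairs in auxin and 12 in untreated cells, a ratio of 2.28 (1.12 to 4.94), and the 3 by 3 bins around their starts held 5 and 1. Cd96 and Bbx had 69 and 46, a ratio of 1.52 (1.03 to 2.26). Abhd10, a hydrolase, and Morc1 had 38 and 64, a ratio of 0.602 (0.392 to 0.913). These counts are small shares of the 52 and no correction for their number was made, so they are values to follow up, not called differences.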

How the data were processed

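Capture Hi-C contact was read from 2 deposited matrices of 535 bins of 10 kb. Per the deposited file names, the authors combined replicates and balanced the matrices by iterative correction, so the deposited signal has no unit and no depth scaling. Row sums over the interval were not equal, from 113 to 2130 in auxin and from 95.5 to 1905 in untreated cells. Block pair 2x14 had a contact ratio of 1.01 as deposited and scaled, and 0.837 with read pairs balanced again over the interval. The submitters' processing notes name mm10 and Trim Galore; no source used here gives the aligner, filters or balancing tool. No label ties a matrix to a sample, so no labelled group was compared.

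Each matrix was scaled to a sum of 1000000 contact units. Whole read pairs were recovered as value over the product of bin factors, estimated from pairs over 1500 kb apart: 100% of nonzero values came within 0.02 of a whole number. The recovery was tested on simulated data. Totals were 433895 pairs in auxin and 439849 in untreated cells, and bins had 14 to 4150 and 14 to 4348. Bins under 100 pairs in either matrix are called sparse. Ratios of pairs have exact conditional 95% intervals, pair counts Poisson intervals and shares Clopper-Pearson intervals; all cover counting error only, and reads amplified from 1 molecule are not independent. Insulation was mean contact over 100 kb on each side of a bin. Python 3.11.15, numpy 2.4.6, scipy 1.17.1 and pandas 2.3.3 were used.

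Named were the 5 block pairs with most contact per matrix and the 5 largest and smallest ratios among those with at least 30 pairs, the 5 top anchor bins and single values, and the listed genes. Members, lists and tests were chosen with earlier results of these data known.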

Additional observations from a re-analysis of the deposited data

How the results depend on the processing

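No paired analysis was possible because each condition is 1 pooled matrix, and leaving out a replicate was not possible for the same reason. Alternatives moved values, but the ratio over all members stayed between 1.16 and 1.24 in all 9 run: 1.24 with values as deposited and 1.16 with read pairs. The ratio beyond the boundary was 1.28, 1.2 and, for pairs over 3000 kb, 1.18, and the added desert class then had 1.27. Before the boundary it ran from 0.961 to 1.04.

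The long-range share, auxin and then untreated, was 2.96% and 2.52% with pairs balanced again, 3.62% and 3.05% over 2500 kb, 2.09% and 1.79% over 3000 kb, 2.51% and 2.07% without the interval ends, and 2.26% and 1.87% without the highest 1% of values; it was 2.43% in untreated cells by read pairs. Empty bin pairs were 71.5% and 75.5% over 2500 kb, 74.3% and 77.8% over 3000 kb, 71.4% and 75.3% without sparse bins, and 73.7% and 77.4% without the highest values.

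Higher in auxin were 55 of 65 block pairs by read pairs, 54 of 65 with pairs balanced again and 52 of 66 with the grid moved by 120 kb. With 500 kb blocks, 19 of 20 block pairs were higher and 4 at least 1.5-fold. At least 1.5-fold higher were 6 of 65 by read pairs; 29 were at least 1.2-fold higher and 2 at least 2-fold, and 2 were at least 1.2-fold lower. The 5 highest block pairs held 14.8% and 17.0% by read pairs, 14.0% and 17.0% with pairs balanced again, 14.3% and 16.3% over 3000 kb, and 38.6% and 42.3% with 500 kb blocks; in auxin they held 12.0% over 2500 kb and 14.1% without the ends. The 5 largest gains held 26.0% of all gains; this was 23.8% as deposited, 20.3% by read pairs, 23.2% over 2500 kb, 28.9% over 3000 kb, 50.7% with 500 kb blocks, 21.9% without sparse bins, 28.6% without the ends and 19.1% without the highest values. The cause of these shifts was not tested beyond the construction of each alternative. Of 104 values of the 15 named block pairs under alternatives, 11 crossed a ratio of 1; counting error limits single block pairs.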
